A study of Homo sapiens with 12 samples.

Results

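The replication-dependent histone genes are the members described here, chosen as the entries of the gene count table whose symbol begins with HIST1H, HIST2H, HIST3H or HIST4H after exact repeats were dropped. The rule gave 43 genes of the 12451 entries in the table, namely 2 H1, 12 H2A, 12 H2B, 8 H3 and 9 H4 genes. Of these, 31 lie on chromosome 6, 11 on chromosome 1 and 1 (HIST4H4) on chromosome 12 of hg38. RNA-seq was performed in MDA-MB-231-ERβ cells, a triple negative breast cancer line that carries a doxycycline-inducible full-length estrogen receptor β (ERβ), in 12 libraries in 4 groups of 3. The groups were vehicle (ethanol), TNFα (vehicle for 5 days, then 20 ng/ml TNFα for 3 h), E2 (1 nM 17β-estradiol for 5 days) and E2+ TNFα (both). The protocol in the labels states that doxycycline was given to induce ERβ, which holds for all groups, although the treatment field of the E2+ TNFα libraries leaves it out. The receptor is an introduced transgene in 1 cell line, and every group, vehicle included, carries it and received the inducer. The RNA-seq dishes were plated in triplicate, and the methods name biological replicates for in vitro work in general without saying how the 3 libraries of a group relate, so p-values measure the spread between these libraries.

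Histones package DNA: H2A, H2B, H3 and H4 form the nucleosome core, and H1 binds the linker DNA between cores. The genes of the replication clusters supply these proteins while DNA is copied, and they are transcribed under the coactivator NPAT in nuclear histone locus bodies. Their messages are the only cellular mRNAs that as a rule end in a conserved stem-loop instead of a poly(A) tail. The stem-loop is bound by SLBP, and cleavage after it needs the U7 snRNP, which contains LSM10 and LSM11. Some of the genes can also be read through the stem-loop to a downstream polyadenylation site. The library kit used here enriches polyadenylated RNA, so counts of genes that end at the stem-loop are not a measure of all histone mRNA.

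The stem-loop is shown because it sets which of the 43 genes are annotated to end without a poly(A) tail. The motif GGNNNTNTNNANNNCC with 6 paired bases in the stem (G with U allowed) was found in all 43 genes, in 39 of them (90.7%) in the 100-base window that ends 20 bases past the annotated 3′ end. In the same window it was found in 6 of the 12396 other genes (0.0484%). The 43 genes carried 7 forms of the 16-base motif. One gene of each form follows, read 5′ to 3′ on the gene's own strand of hg38 as DNA, with the 16 bases of the motif in capitals and 5 flanking bases on each side.
HIST1H1E, chr6:26157090-26157115, + strand: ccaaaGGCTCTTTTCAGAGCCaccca
HIST1H4B, chr6:26026896-26026921, - strand: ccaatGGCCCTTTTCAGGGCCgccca
HIST1H2BK, chr6:27146361-27146386, - strand: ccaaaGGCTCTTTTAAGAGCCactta
HIST2H4A, chr1:149833027-149833052, + strand: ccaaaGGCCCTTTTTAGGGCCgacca
HIST1H2AG, chr6:27133510-27133535, + strand: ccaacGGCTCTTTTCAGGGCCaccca
HIST1H2AK, chr6:27837880-27837905, - strand: aaaaaGGTTCTTTTCAGAGCCaccta
HIST2H2AC, chr1:149887386-149887411, + strand: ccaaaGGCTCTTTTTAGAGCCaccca
The form of HIST1H1E was shared by 26 genes and that of HIST1H2BK by 5. The 2 forms with a stem like that of HIST1H4B (6 genes) and HIST2H4A (3 genes) were found in all 9 H4 genes and in no gene of another type. The other 3 forms were found in 1 gene each.

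In 4 genes, all of them H2B, the annotated exons run on past the stem-loop. It lies 590 bases before the end of the exons in HIST1H2BD, 1728 in HIST2H2BE and 3317 in HIST2H2BF, and in HIST1H2BK it falls in the first intron. HIST1H2BD (3 exons), HIST1H2BK (2) and HIST2H2BF (5) are thus annotated with introns, whereas the other 40 genes have 1 exon. These 4 genes held 38.4% to 41.6% of all histone reads in the vehicle libraries, 24.8% to 26.6% in TNFα, 35.8% to 39.3% in E2 and 36.1% to 36.5% in E2+ TNFα. The TNFα libraries were the lowest, with no overlap with the other groups. This is not a trait of all 4 genes. HIST1H2BK, which held most of their reads, was lower in TNFα than in vehicle (log2 fold change -0.33). HIST2H2BE (1.10) and HIST2H2BF (2.04) were higher, and HIST1H2BD changed little (0.23, adjusted p = 0.298 by edgeR).

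Library totals ran from 7652016 to 39943664 assigned reads, with the E2 libraries the shallowest (7652016 to 15755240). Levels are counts-per-million (CPM) values of the TMM-scaled library size, and RPKM is the same per kilobase of exon. The 12 libraries expressed ESR2, the gene of ERβ, at 228 to 507.7 CPM, and VIM, a mesenchymal marker of this line, at 1042 to 1668 CPM. The epithelial CDH1 was at 3.15 ± 0.525 CPM in vehicle, 1.90 ± 0.192 in TNFα, 41 ± 11 in E2 and 40.7 ± 5.02 in E2+ TNFα. Vehicle libraries stood apart from all others in TMM factor (1.14 to 1.16 against 0.820 to 1.06) and by base composition. From the quintile of tested genes with the lowest exon GC content to the quintile with the highest, the median log2 fold change ran from -1.91 to 0.76 in E2 vs vehicle and from -1.92 to 0.81 in TNFα vs vehicle, but from 0.28 to -0.08 in E2+ TNFα vs TNFα. Tested histone genes have a median exon GC content of 59.3%, at percentile 80.9 of all tested genes (median 49.9%), and the 43 have a median exon length of 467 bases against 3594. A batch that holds the vehicle libraries and the vehicle condition cannot be told apart. The counts and medians over all tested histone genes in each comparison with vehicle are therefore given also with GC and length trends removed. So are the values of most genes described.

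Reads of 50 bases cannot separate all copies. No 50-base window of HIST2H2AA3, HIST2H2AA4, HIST2H3A, HIST2H3C, HIST2H4A or HIST2H4B occurs once in hg38, and 20 of the 41 tested genes had fewer than 90% of their windows single-copy. The 20 include HIST2H2BF (27.1%) and HIST1H2BK (59.1%). How reads with several matches were assigned is not given in the sources used here, so values of these genes are uncertain. The identical copies HIST2H2AA3 and HIST2H2AA4 differed by 0 to 2 reads in the vehicle libraries (449 and 447 reads in replicate 2, for example) and by 2 to 52 reads in the other 9. HIST2H4A and HIST2H4B differed by 3 to 5 reads in vehicle and 0 to 67 in the others. For HIST2H3A and HIST2H3C the ranges were 7 to 18 and 2 to 28 reads, so near-equal counts in vehicle did not hold for every pair.

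Compared per length (RPKM, mean of all 12 libraries), HIST1H2BK (87.5), an H2B gene, and HIST1H1C (86.2), an H1 gene, were the highest, followed by the second H1 gene, HIST1H1E (41.6). HIST2H2AA4 (24.7), HIST2H2AA3 (24) and HIST1H2AC (17.7) led the H2A genes, and HIST1H2BC (10.5) and HIST1H2BJ (10.4) followed HIST1H2BK among the H2B genes. Among H4 genes HIST1H4H (11.7), HIST2H4A (11.2) and HIST2H4B (10.7) were the highest, and their order lies within the spread between replicates. H3 genes were low, with HIST1H3C (7.06), HIST2H3A (5.56) and HIST2H3C (4.87) at the top. The lowest were HIST1H2AB (0.514), an H2A gene, and HIST1H3J (0.189), an H3 gene, which failed the filter of RPKM of at least 1 in 3 libraries, so that 41 genes were tested. Of the 43, 29 reached RPKM of 1 in every library, so a gene counted as tested may have passed through the groups where it was high; with no filter 17, 21 and 18 of the 43 were past the thresholds and higher in E2, TNFα and E2+ TNFα vs vehicle (10.1%, 6.98% and 7.80% of all genes). HIST1H1C, HIST1H1E and HIST1H2BK together took 48.5% to 61.1% of the histone reads of a library.

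Summed over the 43 genes, the level was 184 ± 13.4 CPM in vehicle, 325 ± 50.7 in TNFα, 401 ± 16 in E2 and 351 ± 29.4 in E2+ TNFα (SD, n = 3). All 9 treated libraries (291 to 418 CPM) were above all 3 vehicle libraries (176 to 199.6 CPM). The treated groups differed from each other most in H2B. The summed H2B level was 109 ± 17.7 CPM in TNFα, 174.6 ± 19.5 in E2 and 149 ± 14.1 in E2+ TNFα against 84.8 ± 3.98 in vehicle. That difference follows 1 gene, HIST1H2BK, with mean levels of 43.6, 108 and 87.0 CPM against 54.9 in vehicle. Without HIST1H1C, HIST1H1E and HIST1H2BK, the other 40 genes summed to 167 ± 26.9 CPM in TNFα, 172 ± 19.1 in E2 and 160 ± 14.7 in E2+ TNFα. In vehicle they summed to 86.5 ± 10.1 CPM. H1 was 42.7 ± 1.81 CPM in vehicle and 115 ± 17.7, 121 ± 11 and 104 ± 11.1 CPM in TNFα, E2 and E2+ TNFα. Cells in S phase being more numerous and histone mRNA per cell being higher cannot be told apart in bulk libraries. Nor can either be told apart here from a batch that holds the vehicle libraries or from a larger captured share of histone mRNA. The summed levels are not given with GC and length trends removed.

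**Figure D1:**
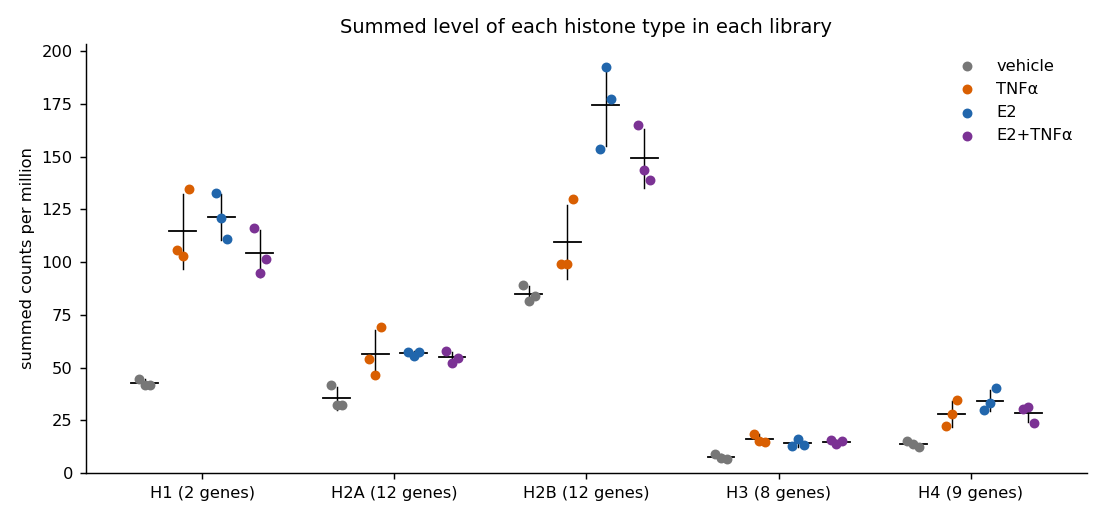
Summed level in CPM (vertical axis) of the genes of each histone type in each of the 12 libraries, with points for libraries, a horizontal line for the group mean and a vertical line for ± 1 SD (n = 3). Every treated library lies above the vehicle libraries for each type, and H2B is higher with E2 (153.8 to 192.5) than with TNFα alone (99.2 to 129.8). HIST1H2BK alone has 102 to 119 CPM with E2 and 39.7 to 50.7 CPM with TNFα alone.

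E2 vs vehicle asks what the ligand of ERβ did over 5 days. Of the 41 tested genes, 16 were significantly higher past all thresholds (log2 fold change of at least 1.5, p under 0.05, adjusted p at most 0.1 by edgeR's quasi-likelihood test) and 0 lower, whereas over all 11303 genes tested 9.87% were called higher and 20.6% lower. By adjusted p alone 33 were higher (40.1% of all genes) and 0 lower (41.7%), and the median log2 fold change was 1.3 against -0.02 over all genes. The 3 E2 libraries were all above the 3 vehicle libraries in 31 genes (39% of all genes) and all below them in 0 (41.8%). Past the thresholds were 1 of 2 H1, 4 of 11 H2A, 3 of 12 H2B, 3 of 7 H3 and 5 of 9 H4 genes.

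HIST1H1C (chr6:26055740-26056471, - strand, 1 exon), which encodes a linker histone, had 34.3, 32.0 and 33.4 CPM in vehicle and 103, 91.1 and 79.1 CPM in E2. The groups were well apart, and the log2 fold change was 1.45 ± 0.13 (SE), short of the fold threshold (adjusted p = 7.72e-08). HIST1H1E (chr6:26156331-26157115, + strand, 1 exon), the other linker histone gene, had 10.5, 9.71 and 8.25 CPM in vehicle and 30.1, 29.7 and 31.6 CPM in E2. The groups did not overlap and the log2 fold change was 1.69 ± 0.17 (adjusted p = 4.23e-07). HIST1H2BK (chr6:27138293-27146858, - strand), the H2B gene with the most reads, had 56.8, 52.2 and 55.8 CPM in vehicle and 104, 119 and 102 CPM in E2, a log2 fold change of 0.97 ± 0.12 (adjusted p = 3.48e-06). Once GC and length trends were taken out, the log2 fold changes were 0.21 ± 0.08 for HIST1H1C, 0.49 ± 0.18 for HIST1H1E, which lost its call, and 0.22 ± 0.10 for HIST1H2BK (adjusted p = 0.0727).

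The largest rises were in genes with few reads. HIST1H2BB, an H2B gene, had 0.266, 0.212 and 0.263 CPM in vehicle and 1.09, 1.12 and 2.08 CPM in E2, a log2 fold change of 2.53 ± 0.45. HIST1H4C, an H4 gene, rose by 2.51 ± 0.47 from 15 to 30 reads per vehicle library. HIST2H2AB, an H2A gene with 2 to 31 reads per library, rose by 2.39 ± 0.62. None of the 3 was past the fold threshold with GC and length trends removed (1.38, 1.43 and 1.12). At the other end, HIST2H2AA3 (log2 fold change 0.08 ± 0.21) and HIST2H2AA4 (-0.02 ± 0.22), the H2A copies that reads cannot separate, had overlapping groups.

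The count in E2 vs vehicle depends on the treatment of base composition and on other settings. Other tested genes in the GC range of the histone genes (45.3% to 65.7%, 7144 genes) had a median log2 fold change of 0.46, and the 420 of them with exons of at most 1000 bases had 0.96, with 28.3% past the thresholds and higher. With GC and length trends removed, 1 histone gene was higher (HIST2H2BF), 2 were lower (HIST2H3A and HIST2H3C, identical copies) and the median was 0.21, where 7.36% of all genes were higher and 6.58% lower, so these counts are near or under the shares of all genes. With a factor from housekeeping genes, as RUVg builds it, 1 gene was higher (HIST1H4B), where 4.96% of all genes were higher and 3.99% lower. The count fell far more than the fold changes: the median was 1.17 under this factor, with 35 of the 41 genes positive. Without TMM scaling 10 were higher (5.56%), and of the 31 genes with at least 10 reads in every library 10 were (8.43%).

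TNFα vs vehicle asks what 3 h of the cytokine did without estrogen. Of the 41 genes 21 were significantly higher (6.64% of all genes) and 0 lower (20%). The median log2 fold change was 1.52, and over all genes 0.01. By adjusted p alone 32 were higher (40.3%) and 1, HIST1H2BK, was lower (41.6%). Without overlap between groups, 33 were higher (42.8%) and HIST1H2BK was lower (43.8%). Past the thresholds were 1 of 2 H1, 8 of 11 H2A, 5 of 12 H2B, 2 of 7 H3 and 5 of 9 H4 genes.

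HIST1H1E had 55.1, 50.8 and 77.4 CPM in TNFα against 8.25 to 10.5 CPM in vehicle. Its lowest TNFα library was above every vehicle, E2 and E2+ TNFα library, and the log2 fold change was 2.69 ± 0.17 (adjusted p = 1.04e-08). This call held with GC and length trends removed (1.84 ± 0.17, adjusted p = 1.90e-07), and its range with each library left out was 2.48 to 2.80. The other linker histone gene, HIST1H1C, had 50.8, 52.1 and 57.5 CPM in TNFα, a log2 fold change of 0.69 ± 0.12 (adjusted p = 0.000122), which was -0.03 with GC and length trends removed.

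A ratio of 2 genes within a library does not depend on how libraries are scaled. Per HIST1H1C read there were 0.975 to 1.35 HIST1H1E reads in the TNFα libraries, 0.247 to 0.305 in vehicle, 0.294 to 0.400 in E2 and 0.376 to 0.405 in E2+ TNFα. The TNFα libraries alone had about as many reads of one linker histone gene as of the other. Exon GC content is 56.4% in HIST1H1C and 60.4% in HIST1H1E, and exon length is 732 and 785 bases.

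HIST1H2BK moved the other way. It had 39.7, 40.3 and 50.7 CPM in TNFα, all below the vehicle libraries (52.2 to 56.8 CPM), and fell by 0.33 on the log2 scale (SE 0.12, adjusted p = 0.0205), a change under the fold threshold. With GC and length trends removed it fell by 0.72 (SE 0.10, adjusted p = 1.62e-05).

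Further rises were seen in HIST2H2AB (log2 fold change 2.94 ± 0.51, from 4 to 8 reads per vehicle library) and HIST1H2BE (2.5 ± 0.46), an H2B gene. HIST2H2BF, an H2B gene with introns, had 4.55, 3.92 and 3.41 CPM in vehicle and 14.7, 15.1 and 19.1 CPM in TNFα, a log2 fold change of 2.04 ± 0.23 (adjusted p = 1.29e-06) that was past the thresholds also with GC and length trends removed. Of its 50-base windows 27.1% are single-copy, so its counts are uncertain. HIST1H4B, an H4 gene, had 0.435, 0.658 and 0.241 CPM in vehicle and 1.94, 2.90 and 2.55 CPM in TNFα, a log2 fold change of 2.46 ± 0.34.

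With GC and length trends removed, 8 histone genes remained past the thresholds in TNFα vs vehicle, all higher (HIST1H1E, HIST1H2AH, HIST1H2BE, HIST1H2BL, HIST1H2BM, HIST1H4B, HIST2H2AB and HIST2H2BF), with a median of 0.72 over the 41, where 4.87% of all genes were higher and 5.62% lower. In vehicle only HIST1H1E and HIST1H4B of the 8 had a mean RPKM over 1 (12.1 and 1.25). The others needed treated libraries to pass the filter, and HIST1H2BE, HIST1H2BL, HIST1H2BM and HIST2H2AB were lowest in vehicle (0.452, 0.292, 0.410 and 0.279). A trend-removed count limited to genes with at least 10 reads in every library was not made. With the housekeeping factor 5 were higher (2.92%), and 12 of the 31 genes with at least 10 reads in every library were (5.62%). Other tested genes in the same GC range had a median of 0.43, and 0.48 with exons of at most 1000 bases.

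**Figure D2:**
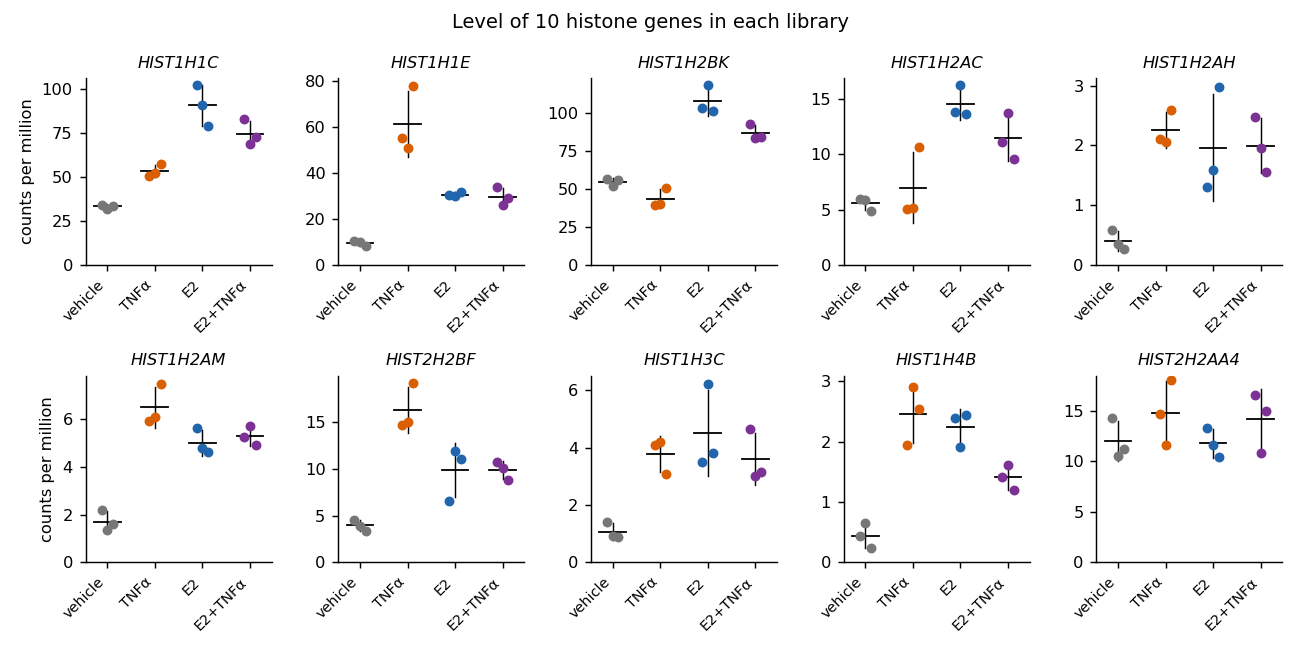
Level in CPM (vertical axis, from 0) of 10 histone genes in the 12 libraries, with points for libraries, a horizontal line for the group mean and a vertical line for ± 1 SD (n = 3). HIST1H1E is highest with TNFα alone (50.8 to 77.4), HIST1H1C, HIST1H2BK and HIST1H2AC have their highest group mean with E2, and HIST2H2AA4 overlaps across groups.

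E2+ TNFα vs vehicle shares its vehicle libraries with both comparisons above. There, 16 genes were significantly higher (7.52% of all genes) and 0 lower (17.6%), the median log2 fold change was 1.31 against -0.03 over all genes, and 34 were higher and 0 lower by adjusted p alone (39.1% and 41.5%). In 31 genes (39.1%) the E2+ TNFα libraries were all above the vehicle libraries, and in 0 all below (42.5%). The largest rises were HIST1H2AH, an H2A gene (2.30 ± 0.38), HIST1H2BE (1.84 ± 0.49) and HIST4H4, the H4 gene outside the clusters of chromosomes 1 and 6 (1.84 ± 0.37). HIST4H4 had 1.04, 0.917 and 0.700 CPM in vehicle and 3.03, 3.25 and 3.21 CPM in E2+ TNFα, with no overlap. The count was 9 without vehicle replicate 3, 6 without TMM scaling (5.39% of all genes), 4 with the housekeeping factor (5.11%), 9 of the 31 genes with at least 10 reads in every library (6.49%), and 1 (HIST2H2BF; 5.79%) with GC and length trends removed, where HIST1H2AH, HIST1H2BE and HIST4H4 gave 1.31, 0.86 and 0.83. Over the 41 genes the log2 fold change ran from 0.09 (HIST2H2AA3) to 2.30 (HIST1H2AH).

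**Figure D3:**
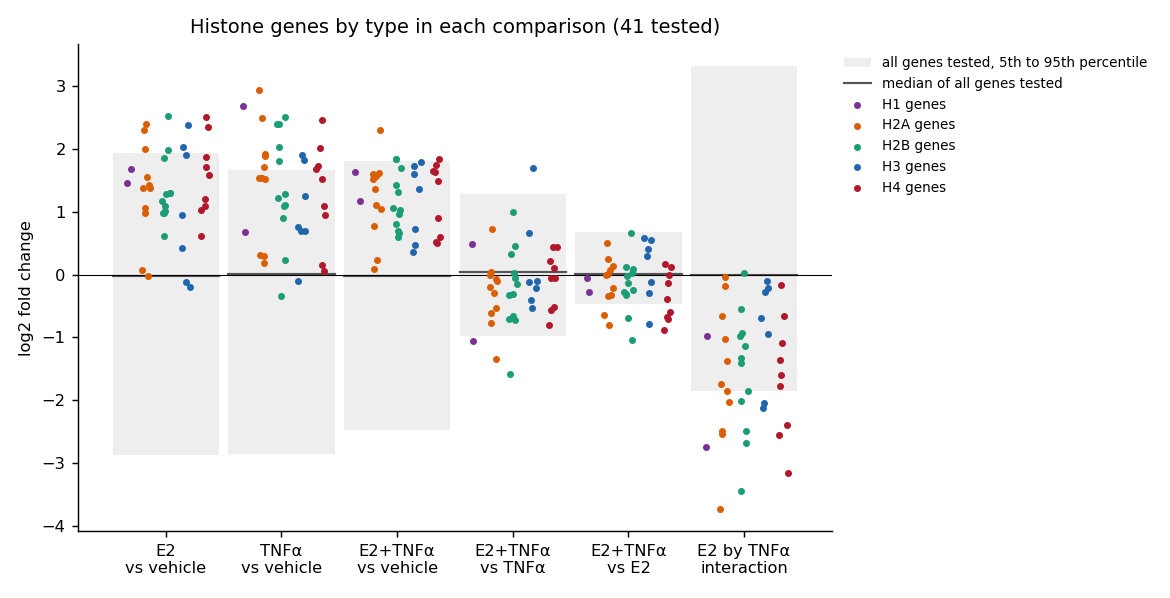
Log2 fold change (vertical axis) of each of the 41 tested histone genes in the 5 comparisons and the interaction, coloured by type, over a grey band from the 5th to the 95th percentile of all 11303 tested genes and a line at their median. Histone genes lie mostly above 0 in the 3 comparisons with vehicle (medians 1.3, 1.52 and 1.31) and around 0 in E2+ TNFα vs TNFα (-0.12) and vs E2 (-0.13).

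E2+ TNFα vs TNFα asks what estrogen did in cells given TNFα, and it does not use the vehicle libraries for its means. Whether estrogen changed the response to TNFα is a question for the interaction, given below. Only 1 histone gene was significantly higher (HIST1H3A; 3.55% of all genes) and 1 lower (HIST1H2BL; 2.01%). The median log2 fold change was -0.12 against 0.04 over all genes. By adjusted p alone 5 were higher (24.4%), namely HIST1H1C, HIST1H2AC, HIST1H2BD, HIST1H2BK and HIST1H3A, and 6 were lower (21%), namely HIST1H1E, HIST1H2AI, HIST1H2BL, HIST1H4B, HIST2H2AB and HIST2H2BF. Of the 41 genes, both counts by adjusted p are smaller shares than those of all genes. Groups did not overlap in 6 higher (23.7%) and 10 lower genes (23.1%).

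The 3 genes with the most reads split. HIST1H1E had 33.6, 25.9 and 28.8 CPM in E2+ TNFα, all below the TNFα libraries (50.8 to 77.4 CPM), and fell by 1.05 on the log2 scale (SE 0.17, adjusted p = 0.000143). HIST1H2BK had 92.8, 83.5 and 84.7 CPM in E2+ TNFα, all above the TNFα libraries (39.7 to 50.7 CPM), and rose by 1.00 ± 0.12 (adjusted p = 1.41e-05). HIST1H1C had 82.8, 68.9 and 72.5 CPM against 50.8 to 57.5 CPM and rose by 0.48 ± 0.12 (adjusted p = 0.00624). Both directions held with GC and length trends removed (HIST1H1E -1.15 ± 0.17, HIST1H2BK 0.85 ± 0.10, HIST1H1C 0.27 ± 0.08). In E2+ TNFα the levels of HIST1H1E were near those of E2 alone (29.7 to 31.6 CPM).

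Among H2B and H4 genes, HIST2H2BF had 10.7, 10.1 and 8.81 CPM against 14.7 to 19.1 CPM in TNFα and fell by 0.72 (SE 0.22, adjusted p = 0.0181). HIST1H4B had 1.42, 1.61 and 1.2 CPM against 1.94 to 2.90 CPM and fell by 0.81 (SE 0.32, adjusted p = 0.0590). For both genes the groups did not overlap.

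Both calls past the fold threshold rest on few reads. HIST1H3A, an H3 gene, had 4, 26 and 28 reads in E2+ TNFα and 9, 2 and 6 in TNFα (0.247, 0.910 and 0.839 CPM against 0.296, 0.0653 and 0.312 CPM), with overlapping groups and a log2 fold change of 1.70 ± 0.70 (adjusted p = 0.0710). Its call was lost without TNFα replicate 2 (1.19), without E2+ TNFα replicate 2 (1.48) or 3 (1.55, adjusted p = 0.130) and without vehicle replicate 3 (1.67, adjusted p = 0.101), and also under the replicate block (1.63, adjusted p = 0.120), by DESeq2 (1.59, adjusted p = 0.119) and with GC and length trends removed (1.44). HIST1H2BL, an H2B gene, had 0, 8 and 11 reads in E2+ TNFα and 21, 27 and 10 in TNFα, and fell by 1.58 (SE 0.58, adjusted p = 0.0448), a call lost without E2+ TNFα replicate 1 (-1.2) or TNFα replicate 2 (-1.40) and with the housekeeping factor (-1.49). After removal of both trends 0 genes were higher (3.11% of all genes) and 2 lower (2.14%), HIST1H2BL and HIST2H2AB (-1.58).

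E2+ TNFα vs E2 asks what TNFα did after estrogen, with E2 libraries in common with E2 vs vehicle. By edgeR 0 histone genes were past the thresholds (0.389% of all genes higher and 0.0177% lower) or had an adjusted p of at most 0.1 (2.65% and 3.34%), 5 had an unadjusted p under 0.05 (HIST1H1C, HIST1H2BK, HIST1H4K, HIST2H2AC and HIST2H4A; 19.4%) and 0 passed by DESeq2. Groups did not overlap in 2 higher genes (HIST1H2BE and HIST2H3A; 6.05%) and 3 lower ones (HIST1H2BK, HIST1H4B and HIST1H4C; 9.27%). Log2 fold changes ran from -1.04 ± 0.72 (HIST1H2BL) to 0.66 ± 0.57 (HIST1H2BE) with a median of -0.13 against 0.01. HIST1H1E had 29.7 to 31.6 CPM in E2 and 25.9 to 33.6 CPM in E2+ TNFα (log2 fold change -0.05 ± 0.17, adjusted p = 0.896). HIST1H2BK had 102 to 119 CPM in E2 and 83.5 to 92.8 CPM in E2+ TNFα, without overlap (-0.31 ± 0.12, adjusted p = 0.179). The shallow E2 libraries limit this comparison.

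The interaction tests whether the E2 effect differs with and without TNFα. It was significantly negative in 19 histone genes (9.29% of all genes) and positive in 0 (22.5%), and by adjusted p alone negative in 30 (37.6%) and positive in 0 (39%), with a median of -1.38 against -0.01. The term contains the vehicle libraries. For HIST1H1E it was -2.74 ± 0.24 (adjusted p = 4.40e-07), made of a log2 difference for E2 of 1.69 without TNFα and -1.05 with it. For HIST1H2BK it was 0.02 ± 0.17 (adjusted p = 0.910), as E2 raised it by 0.97 without TNFα and by 1.00 with it. HIST1H2AM, an H2A gene, had 2.20, 1.34 and 1.60 CPM in vehicle, 5.61, 4.78 and 4.61 in E2, 5.93, 6.10 and 7.49 in TNFα and 5.25, 5.70 and 4.91 in E2+ TNFα. All treated libraries were above the vehicle libraries, and the interaction was -1.85 ± 0.33 (adjusted p = 0.000150). HIST2H2AC, an H2A gene of chromosome 1, had 0.611 to 1.19 CPM in vehicle, 2.71 to 4.58 in E2, 3.19 to 3.85 in TNFα and 2.16 to 2.97 in E2+ TNFα (interaction -2.53 ± 0.41). With GC and length trends removed 9 genes were past the thresholds (HIST1H1E, HIST1H2AH, HIST1H2BB, HIST1H2BL, HIST1H4B, HIST1H4C, HIST2H2AB, HIST2H2AC and HIST2H2BF), all negative (6.34% of all genes), and with the housekeeping factor 3 (HIST1H1E, HIST1H4A and HIST1H4B; 2.1% of all genes). Of the 9, HIST1H2AH, HIST1H2BB, HIST1H2BL, HIST2H2AB and HIST2H2BF had a mean vehicle RPKM under 1.

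**Figure D4:**
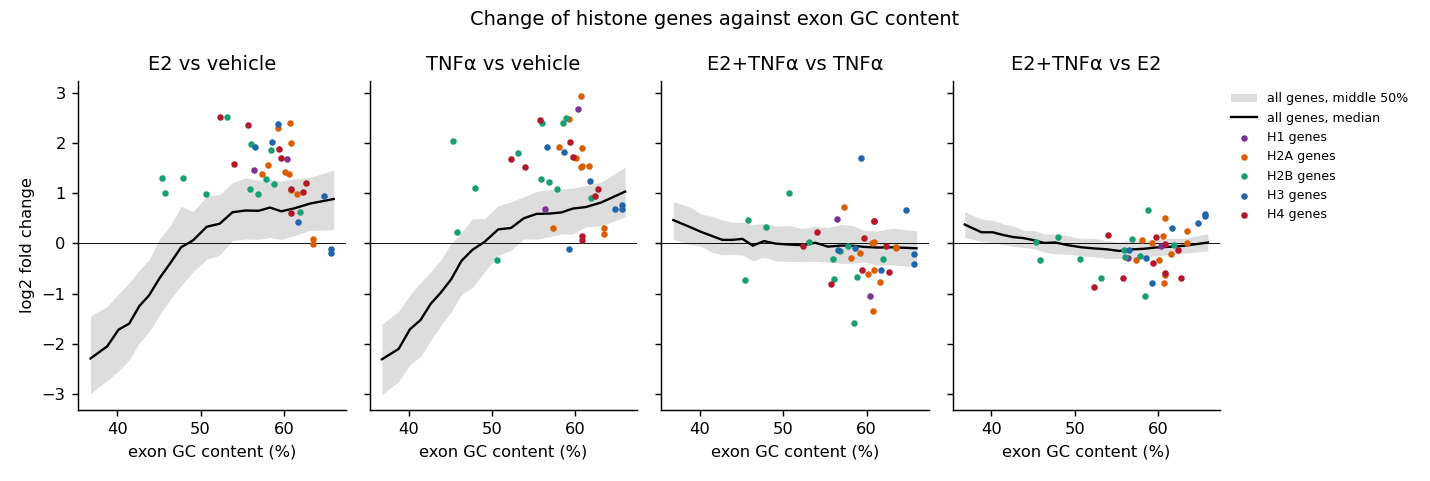
Log2 fold change (vertical axis) against exon GC content in percent (horizontal axis) for the 41 tested histone genes, coloured by type, over the median (line) and middle 50% (band) of all tested genes in 20 bins of GC content. In both comparisons with vehicle the line climbs with GC content and most histone genes lie above it, whereas in E2+ TNFα vs TNFα and vs E2 the line is nearly flat and histone genes lie on both sides of 0.

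H2A and H2B genes lie in head-to-head pairs with 223 to 322 bases between their starts, and 8 such pairs were found among the members. The stretch between the genes is shown for 2 pairs, one whose genes changed alike and one whose genes did not, as hg38 + strand, with capitals for matches on either strand to the octamer ATTTGCAT, the CCAAT box and the TATA box TATAAA, elements known in histone promoters. TATA matches on the 2 strands can overlap.
HIST1H2BJ to HIST1H2AG, chr6:27132797-27133037: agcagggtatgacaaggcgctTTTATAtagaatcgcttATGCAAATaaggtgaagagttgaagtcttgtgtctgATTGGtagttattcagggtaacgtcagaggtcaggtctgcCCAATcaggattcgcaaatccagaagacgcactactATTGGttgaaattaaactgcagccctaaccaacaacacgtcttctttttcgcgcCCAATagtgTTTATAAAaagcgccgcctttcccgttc
HIST1H2BK to HIST1H2AH, chr6:27146859-27147081: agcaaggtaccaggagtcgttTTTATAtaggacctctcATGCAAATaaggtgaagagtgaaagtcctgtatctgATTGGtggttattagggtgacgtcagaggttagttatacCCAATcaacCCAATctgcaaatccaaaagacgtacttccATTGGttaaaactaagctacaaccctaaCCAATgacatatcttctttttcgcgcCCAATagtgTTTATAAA
The first holds 1 octamer, 4 CCAAT and 3 TATA matches and the second 1, 6 and 3. In the RefSeq promoters (GRCh38.p14, 250 bases before to 50 after the start) of the 39 matched members (not HIST1H2AH, HIST1H3J, HIST1H4A and HIST1H4C), the octamer was present in 16 (41%; 1.80% of 27305 promoters), in 7 of 11 H2A and 9 of 12 H2B genes and in no H1, H3 or H4 gene. The CCAAT box was present in 32 (82.1%; 35.7% of all), that is in every matched H1, H2A, H2B and H3 gene and in 0 of 7 H4 genes. TATAAA was present in 31 (79.5%; 12% of all). A match is not a measured site.

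HIST1H2BJ and HIST1H2AG changed alike, with log2 fold changes of 1.28 and 1.52 in TNFα vs vehicle and 1.09 and 1.38 in E2 vs vehicle (0.60 and 0.73, and -0.25 and 0.07, with GC and length trends removed). HIST1H2BK and HIST1H2AH did not. HIST1H2AH had 0.580, 0.353 and 0.263 CPM in vehicle and 2.11, 2.06 and 2.60 CPM in TNFα, a rise of 2.49 ± 0.37 (adjusted p = 2.10e-05), whereas HIST1H2BK fell. Reads of HIST1H2BK per HIST1H2AH read were 97.8 to 212 in vehicle, 18.8 to 19.6 in TNFα, 34.1 to 79.6 in E2 and 37.5 to 54.4 in E2+ TNFα, so the TNFα libraries were the lowest and the vehicle libraries the highest, without overlap. Per length, HIST1H2BK stood 25.5-fold above HIST1H2AH over the 12 libraries, and the ratio of the left to the right gene of the other 7 pairs was 0.136 to 2.18. A difference between HIST1H2BC and HIST1H2AC was also seen: the first had 5.07, 3.82 and 8.63 CPM in TNFα against 2.30 to 2.68 CPM in vehicle (1.22 ± 0.35, adjusted p = 0.00497), and the second had 5.04, 5.19 and 10.7 against 4.84 to 6.0 CPM (0.31 ± 0.26, adjusted p = 0.287). In each of these members TNFα replicate 3 was the highest TNFα library. The gap between HIST1H2BC and HIST1H2AC in TNFα vs vehicle (0.91) was not tested. It was near that of HIST1H2BL and HIST1H2AI (0.85) and that of HIST1H2AM and HIST1H2BO (0.83).

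**Figure D5:**
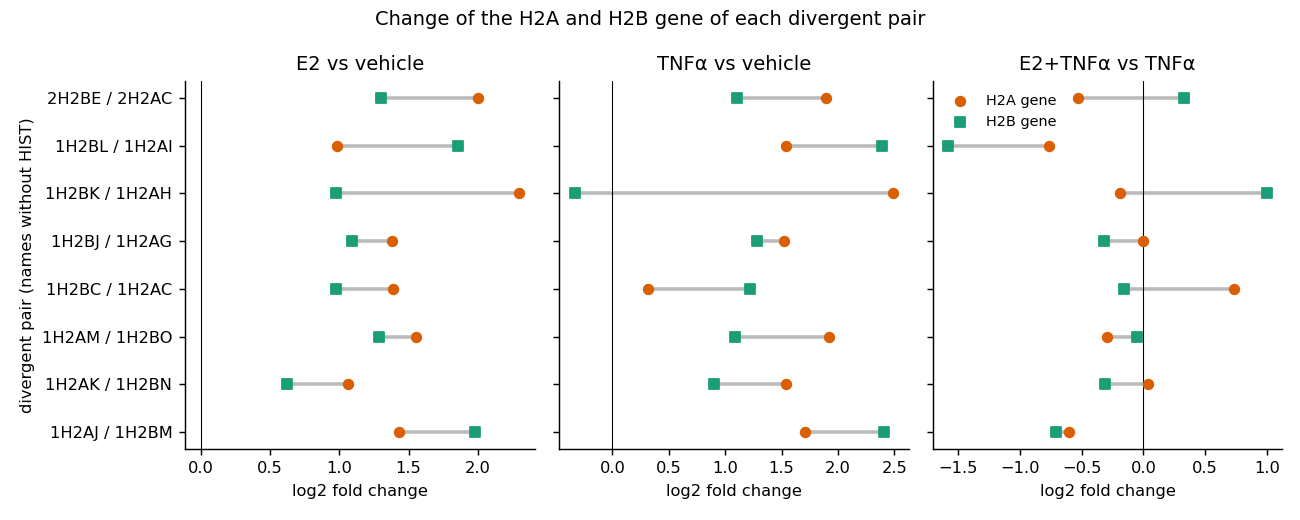
Log2 fold change (horizontal axis) of the H2A gene (circle) and the H2B gene (square) of the 8 divergent pairs in 3 comparisons, joined by a line, with gene names shortened by HIST. The pair HIST1H2BK and HIST1H2AH is the farthest apart in all 3, with -0.33 and 2.49 in TNFα vs vehicle.

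By median, genes with exons past the stem-loop and genes that end at it were both higher than vehicle. In E2 vs vehicle the 4 genes with longer exons had a median log2 fold change of 1.15 (0 past the thresholds, 4 higher by adjusted p) and the other 37 had 1.38 (16 past). In TNFα vs vehicle the medians were 0.67 and 1.53, with 1 of 4 (HIST2H2BF) and 20 of 37 past the thresholds. There the 4 genes had mixed signs, from -0.33 (HIST1H2BK) to 2.04 (HIST2H2BF), with 2 higher and 1 lower by adjusted p. The 4 also have longer exons and lower exon GC content (45.3% to 50.7%) than most tested histone genes (median 59.3%). The part of either was not tested, and medians of these 2 sets are not given with trends removed. HIST1H2BD, 1 of the 4, had 8.97, 8.81 and 8.84 CPM in vehicle, 9.35, 10.4 and 11.5 CPM in TNFα and 14.6, 20.6 and 18.8 CPM in E2. HIST2H2BE, the other long gene, had 5.32 to 6.46 CPM in vehicle and 11.8 to 17.9 CPM in every treated library.

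By position, the 29 tested genes of chromosome 6 had medians of 1.43 in E2 vs vehicle and 1.54 in TNFα vs vehicle, and the 11 of chromosome 1 had 0.95 and 0.69. Chromosome 1 holds the 6 genes without a single-copy window, whose medians were 0.03 and 0.24 and of which 0 passed the thresholds. The 21 genes with at least 90% single-copy windows had medians of 1.71 and 1.73, with 14 and 15 past the thresholds, and the 20 with fewer had 1.00 and 0.93, with 2 and 6. Among H3 genes, HIST1H3C (all windows single-copy) rose by 2.03 ± 0.31 in E2 vs vehicle, with 1.40, 0.917 and 0.897 CPM in vehicle and 3.49, 6.22 and 3.80 CPM in E2, whereas HIST2H3A, with no such window, gave -0.19 ± 0.26. Taking out GC and length trends gave 0.71 and -1.63.

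Of 30 tested genes that make and process histone mRNA, 1 was higher and 7 lower past the thresholds in E2 vs vehicle (median -0.38), beside 9.87% and 20.6% of all genes, and 1 higher and 8 lower in TNFα vs vehicle (median -0.38), beside 6.64% and 20%. After removal of both trends the counts were 2 and 0 in E2 (7.36% and 6.58% of all genes) and 1 and 0 in TNFα vs vehicle (4.87% and 5.62%). SLBP, the stem-loop binding protein, had 57.5 ± 4.07 CPM in vehicle, 37.9 ± 3.46 in TNFα, 45.2 ± 10.5 in E2 and 45 ± 2.15 in E2+ TNFα, and its fall of 0.60 in TNFα vs vehicle (SE 0.15, adjusted p = 0.00169) was under the fold threshold, as it was with GC and length trends removed (-1.08). NPAT, the coactivator of histone genes, had 34.2 ± 5.22 CPM in vehicle, 2.74 ± 0.379 in TNFα and 2.6 ± 0.471 in E2, and fell by 3.63 in TNFα and 3.69 in E2 on the log2 scale. CASP8AP2, a component of histone locus bodies, had 11.6 ± 3.24, 0.959 ± 0.0797 and 0.840 ± 0.459 CPM in the same groups. Both have exons of 37.3% GC, in the lowest quintile, and with GC and length trends removed NPAT fell by 1.31 and 1.26 and CASP8AP2 by 1.24 and 1.23, under the fold threshold. Of the U7 snRNP, LSM10 had 20.3 ± 1.11 CPM in vehicle, 78.6 ± 4.80 in TNFα and 117 ± 17.9 in E2 (log2 fold change 1.95 and 2.53; exon GC 57.5%; 1.21 and 1.39 with trends removed), and LSM11 had 13.2 ± 0.997, 16.2 ± 1.52 and 19.9 ± 1.3 CPM (0.29 and 0.59, and 1.26 and 1.72 with trends removed).

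Past the thresholds in E2 vs vehicle were 3 higher and 0 lower of 11 replacement histone genes (median 0.74), 0 and 6 of 20 histone chaperones (median -0.68) and 4 and 8 of 44 S-phase and DNA replication genes (median -0.10). Over all genes 9.87% were higher and 20.6% lower. In TNFα vs vehicle the 3 lists had 3 and 0, 1 and 5, and 2 and 7, with medians of 0.70, -0.63 and 0.00, beside 6.64% and 20% of all genes. The S-phase genes called lower were thus no larger a share than over all genes. After the same removal the counts were 2 and 0, 0 and 1, and 2 and 1 in E2 vs vehicle (7.36% and 6.58% of all genes). In TNFα vs vehicle they were 2 and 0, 1 and 1, and 1 and 1 (4.87% and 5.62%). H3F3C, a replacement H3 gene, had 3.40 ± 0.0727 CPM in vehicle and 52.7 to 59.8 CPM as the mean of each treated group, and H2AFJ, a replacement H2A gene, 22.1 ± 2.39 CPM against 84.1 to 121 CPM. E2F1, a regulator of entry into S phase, had 91.4 ± 4.33 CPM in vehicle, 205 ± 9.98 in TNFα and 296 ± 73.7 in E2 (exon GC 61.7%), and its log2 fold change with trends removed was 0.28 in TNFα and 0.77 in E2. GINS4, a subunit of the replicative helicase, had 54.3 ± 2.70, 57.6 ± 5.08 and 217 ± 9.73 CPM (0.22 and 2.03 with trends removed). The chaperones SUPT16H (172.7 ± 11.1 CPM in vehicle, 53.4 ± 5.87 in TNFα and 42.8 ± 3.06 in E2) and NAP1L1 (491 ± 35.2, 153 ± 24.6 and 116 ± 12.5 CPM) were lower in both, but with trends removed SUPT16H gave -1.02 and -1.26 and NAP1L1 turned to 0.53 and 0.29.

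Trend-removed values of H3F3C (4.68 in TNFα and 4.32 in E2) and H2AFJ (2.43 and 2.96) stayed past the thresholds. Single-copy windows were not counted for either gene, so whether reads of related genes are among their counts was not tested.

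Of 12 tested RNAs listed as made without a poly(A) tail, 1 was higher and 3 lower past the thresholds in E2 vs vehicle and 1 and 2 in TNFα vs vehicle (medians 0.54 and 0.12). For this and the next lists, the shares of all genes were 9.87% higher and 20.6% lower in E2 vs vehicle. In TNFα vs vehicle they were 6.64% and 20%. MALAT1, a nuclear RNA, had 1709 ± 187 CPM in vehicle and 96.4 ± 22.2 in TNFα, and NEAT1, the RNA of paraspeckles, 116 ± 11.2 and 22.7 ± 0.940 CPM (-2.16 and -2.26 in TNFα vs vehicle with trends removed). The NEAT1 entry has exons of 3735 bases, the length of its short polyadenylated form, so its place in this list is doubtful. With trends removed 2 of these RNAs were higher and 3 lower in E2 and 3 and 2 in TNFα vs vehicle. The shares of all genes were then 7.36% and 6.58% in E2 and 4.87% and 5.62% in TNFα vs vehicle. Of 7 mesenchymal genes 0 were higher and 1 lower (ZEB1) in both comparisons, of 7 epithelial genes 4 were higher with E2 and 0 with TNFα, and of 20 housekeeping genes 0 passed the thresholds in either, with medians of 0.40 and 0.20. With trends removed the mesenchymal counts were 1 and 1 in E2 and 1 and 0 in TNFα vs vehicle, the epithelial 3 and 0, and 0 and 0, and the housekeeping 4 and 0, and 2 and 0. ZEB1, a repressor of epithelial genes, had 23.3 ± 3.47 CPM in vehicle and 1.19 ± 0.719 in E2, CAV1, a caveolar protein gene, 169.6 ± 15 and 377 ± 76.4, and KRT19, a keratin gene, 283 ± 29.8 and 2598 ± 545. The housekeeping genes PSMB2 (log2 fold change 1.3 ± 0.11 in E2 vs vehicle) and PGK1 (1.35 ± 0.12) had the smallest adjusted p of their list. The part of these shifts in the histone values was not tested.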

How the data were processed

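Poly(A)-enriched stranded RNA (TruSeq Stranded mRNA) of MDA-MB-231-ERβ cells was sequenced by the authors in 12 libraries. Per the labels and the submitters' processing notes, reads were aligned to hg38 (TopHat2 2.1.0) and summarised per gene by featureCounts. Raw counts were deposited, and the RUVseq correction in the study's methods is not in them. How multiply aligned reads were counted is not given in the sources used here. The table had 12567 rows. Dropping 46 exact repeats, and 70 rows that list a locus again under a different name, left 12451, and 0 columns belonged to no sample.

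Testing was limited to the 11303 genes that reached an RPKM of 1 in 3 or more libraries, and used edgeR 4.0.16 in R 4.3.3 (TMM, quasi-likelihood F test, 1 fit of 12 libraries, 4 group means, Benjamini-Hochberg adjustment over all genes tested). Thresholds followed the study (log2 fold change of at least 1.5, p under 0.05, adjusted p at most 0.1). Depth was 7652016 to 39943664 assigned reads, and SDs and SEs cover these libraries. Alternatives were other scalings, filters, DESeq2 1.42.0, a replicate block, a factor from 20 housekeeping genes, loess trends (span 0.3, the loess function of R) on exon GC content and length, and leaving out each library. Scripts were tested on simulated data.

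The members were chosen by symbol, and members and lists (histone mRNA processing, replacement histones, chaperones, S-phase genes, RNAs without a poly(A) tail, mesenchymal, luminal epithelial and housekeeping genes) with earlier results of these data known. Named genes are the 3 highest of each type by mean RPKM, the up to 6 with the smallest adjusted p past the thresholds in E2+ TNFα vs TNFα, vs E2 and the interaction, the 3 largest rises and falls past them against vehicle, 5 processing genes and the 2 genes of each other list with the smallest adjusted p in E2 vs vehicle. Others were named after their values were seen. hg38 sequence and RefSeq promoters were used.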

Additional observations from a re-analysis of the deposited data

Results flagged for a closer look

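The effect of E2 differed with and without TNFα, by the interaction term of the same fit, in 19 histone genes. In each it was smaller, on the log2 scale, with TNFα than without it. The term was -2.74 for HIST1H1E, -3.16 for HIST1H4B, -2.02 for HIST2H2BF, -2.53 for HIST2H2AC, -1.85 for HIST1H2AM, -2.12 for HIST1H3C, -2.40 for HIST1H4A, -3.73 for HIST2H2AB and -2.49 for HIST1H2AH. It was -2.03 for HIST1H2AJ, -1.77 for HIST1H4K, -2.49 for HIST1H2BB, -2.56 for HIST1H4C, -2.04 for HIST1H3B and -3.44 for HIST1H2BL. It was -1.75 for HIST1H2AI, -1.60 for HIST4H4, -2.69 for HIST1H2BM and -1.84 for HIST1H2BE. The smallest adjusted p by edgeR was 4.40e-07 (HIST1H1E) and the largest 0.0421 (HIST1H2BE). With GC and length trends removed 9 of the 19 stayed past the thresholds, and HIST1H2AM, HIST1H3C, HIST1H4A, HIST1H2AJ, HIST1H4K, HIST1H3B, HIST1H2AI, HIST4H4, HIST1H2BM and HIST1H2BE did not. All 19 terms rest on the vehicle libraries, which stand apart from the others.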

How the results depend on the processing

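Against the reported 16, 21, 16, 2, 0 and 19 histone genes past the thresholds (E2, TNFα and E2+ TNFα vs vehicle, E2+ TNFα vs TNFα and vs E2, and the interaction), removing GC and length trends gave 3, 8, 1, 2, 0 and 9 (in E2+ TNFα vs TNFα HIST1H3A was lost and HIST2H2AB gained), and the same with the replicate block gave 3, 8 and 1 for the comparisons with vehicle and 9 for the interaction. The housekeeping factor gave 1, 5, 4, 1, 0 and 3. Scaling by library size only gave 10 in E2 and 6 in E2+ TNFα vs vehicle, and at least 10 reads in every library gave 10, 12, 9 and 0 in the first 4 comparisons. In E2+ TNFα vs TNFα, DESeq2 and the replicate block each gave 1. No pairing of libraries by replicate number was seen, which does not exclude one. Deviations of same-numbered libraries correlated at -0.48 to 0.47 (5 of 18 over 0.1) and of others at -0.55 to 0.66 (17 of 36). The replicate block gave 16, 20, 16, 1, 0 and 19. With 1 library left out, counts ran from 13 to 17, 16 to 21, 9 to 17, 1 to 2, 0 to 0 and 17 to 23. The 9 was without vehicle replicate 3, and the 1 without vehicle replicate 3, TNFα replicate 2, or E2+ TNFα replicate 1 or 2.

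Medians of 1.3, 1.52, 1.31, -0.12, -0.13 and -1.38 became 0.21, 0.72, 0.32, -0.45, 0.12 and -0.62 without GC and length trends, and 0.20, 0.72, 0.33, -0.44, 0.12 and -0.58 with the replicate block as well. By library size only they were 0.95 (E2), 1.08 (E2+ TNFα vs vehicle) and -1.06 (interaction), where the median of all genes moved to -0.38, -0.26 and 0.31. The housekeeping factor gave 1.18 in TNFα and 1.17 in E2+ TNFα vs vehicle, and the filter on 10 reads gave 1.04 in the latter. Without genes under 90% single-copy windows they were 1.71 (E2), 1.63 (E2+ TNFα vs vehicle) and -1.85 (interaction). With 1 library left out medians ran from 1.15 to 1.44, 1.11 to 1.61, 1.15 to 1.39, -0.30 to 0.04, -0.27 to 0.00 and -1.70 to -1.09. Summed levels by library size only were 211 CPM in vehicle and 359 in E2.

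Signs turned without GC and length trends (and with the block as well) in E2 vs vehicle for HIST1H2BC (-0.30 and -0.37), HIST1H2BJ (-0.25 and -0.27), HIST2H4A (-0.18 and -0.23) and HIST2H4B (-0.69 and -0.67), in TNFα vs vehicle for HIST1H1C (-0.034 and -0.034), HIST2H3A (-0.30 and -0.30) and HIST2H3C (-0.35 and -0.36), in E2+ TNFα vs vehicle for HIST1H2BJ (-0.034 and -0.019) and HIST2H4B (-0.44 and -0.46), and in the interaction for HIST1H1C (0.066 and 0.068). With the housekeeping factor HIST1H2BJ turned in E2 (-0.51) and E2+ TNFα (-0.21) vs vehicle and in the interaction (0.084). The cause was not tested. Of the other repeats of 87 results of named histone genes (adjusted p at most 0.1), 1660 kept direction and side of the thresholds, 177 fell below them and 17 rose past them. Depth limits genes with few reads, such as HIST1H3A and HIST1H2BL, and the E2 libraries.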
